A study of Mus musculus with 8 samples.

Results

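The genes described here set the passage from the G1 phase of the cell cycle into S phase: E-type and D-type cyclins (Ccne1, Ccne2, Ccnd1, Ccnd3), the cyclin-kinase inhibitor Cdkn1b, the pocket protein Rb1 and the E2F transcription factors E2f1 to E2f4. Of these 10 genes, 9 had a transcript cluster (the array's unit of measurement, named for a gene) of their own among 30709 genes tested. The rows were chosen on measured values: of several clusters that named the same gene alone, the one with the highest mean over the 8 arrays was taken, which decided between clusters for E2f3 and Rb1, and clusters with a value that no log2 level can reach were to be dropped, which touched no member. The cluster not taken for E2f3 had a mean level of 4.23, and those not taken for Rb1 had means of 4.75 and 4.34. Ccnd1, a D-type cyclin, lay only on a cluster that also named a microRNA gene, so no value is given for it.

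The arrays were Affymetrix whole-transcript arrays, 8 in all, each carrying RNA of 100 pooled mouse embryos from B6C3F1 x CD1 matings, collected as zygotes from the oviduct after hormone stimulation and studied at the late 2-cell stage. There were 4 groups of 2 pools: non-manipulated embryos, embryos injected with Trim21 mRNA, embryos injected with both Trim21 mRNA and an anti-COPS3 antibody (called the full treatment), and embryos labelled as given the antibody alone, a group the injection protocol does not describe. Injection was into the cytoplasm at the pronuclear stage, 28 h before lysis, while the age label gives 24 h in vitro. TRIM21 recognises an antibody bound to its protein and sends the complex for degradation, and COPS3 is part of the COP9 signalosome, which keeps cullin ubiquitin ligases cycling. The labels describe normal cleavage in both groups without antibody, and stunted cleavage with many zygotes left undivided in both groups with it, so pools labelled 2-cell from the antibody groups may also hold undivided zygotes. No group received a control antibody. The 4 groups were treated on different days, and the 2 pools of each group on the same one. Day and group thus cannot be told apart, and each p covers only the spread between pools made on the same day. A further limit of pooled RNA is that fewer embryos with a transcript and less of it per embryo look alike.

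In a cycling cell, D-type and E-type cyclins activate kinases that phosphorylate RB1, which frees E2F1, E2F2 and E2F3 to switch on genes for DNA synthesis, Ccne1 and Ccne2 among them. p27, the Cdkn1b product, blocks the cyclin E kinase, and E2F4 works with pocket proteins mainly as a repressor. Cyclin E and p27 are removed through cullin-RING ubiquitin ligases, the enzymes that the COP9 signalosome acts on. The mouse 2-cell embryo has a short G1 phase, and the oocyte leaves a store of maternal transcripts that is largely replaced at the 2-cell stage.

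Levels are the deposited log2 values per transcript cluster. They can be compared between pools for the same gene and not between genes, whose probes differ in brightness. Each difference is between mean log2 levels of groups, ± its standard error in a limma fit of 4 group means to all 8 arrays (n = 2 pools per group), and a gene is said to be called at a Benjamini-Hochberg adjusted p under 0.05 over all 30709 genes. Trim21 itself stood at 9.77 to 10.40 in the 4 pools labelled as given its mRNA and at 5.65 to 6.76 in the other 4, as the labels have it. The arrays did not share a distribution: their median level ran from 4.75 to 5.29, and the median gene was 0.21 higher in the full treatment than with Trim21 mRNA. That shift was −0.12 after each array was centred on its median and −0.01 after quantile normalization, so values under these scalings are given where they change a result. It also went with level: of the 521 genes with a mean level of at least 14 the median difference was −1.34, against 0.31 for genes between 4 and 6. The antibody-alone pools differed from each other by more than 2-fold at 4616 genes, against 49 to 809 in the other groups, and results that use them are given without each pool in turn. Leaving out either of these pools raised the number of calls over all genes in every comparison but Trim21 mRNA against non-manipulated embryos. A member's call in such a fit is thus not particular to it. Early embryo and oocyte markers had a median level of 11.17 to 12.76 per array (12 of 12 measured). Median levels per array were 4.93 to 6.01 for 11 of 13 cumulus and granulosa markers, 4.09 to 4.80 for 8 of 8 sperm markers, 4.58 to 5.42 for 5 of 6 oviduct markers and 4.27 to 4.94 for 5 of 8 blood markers.

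In the full treatment against Trim21 mRNA, which asks what the antibody changed where both groups carried the ligase, E2f2, E2f4, Rb1 and Ccne2 were higher and Ccne1 was lower. E2f2 had the largest difference of the 9 genes, 5.15-fold, and E2f4 was 3.05-fold higher. The 4 higher and 1 lower calls among 9 genes compare with 8.72% of all genes called higher and 14.5% called lower, and 6 of the 9 had an unadjusted p under 0.05 against 38.3% of all genes. In a fit of the 12727 genes with a mean level of at least 6, 1508 were called higher and 4482 lower. Of the 8 members in that fit 6 were called in either direction. Both pools of the full treatment lay above both Trim21 mRNA pools for 7 genes and below them for Ccne1. The share of all genes whose pools lay apart was not counted, so this does not set the 9 genes apart. The median difference of the 9 genes was 0.76, against 0.21 over all genes. The plot of levels shows these pools gene by gene.

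**Figure D1:**
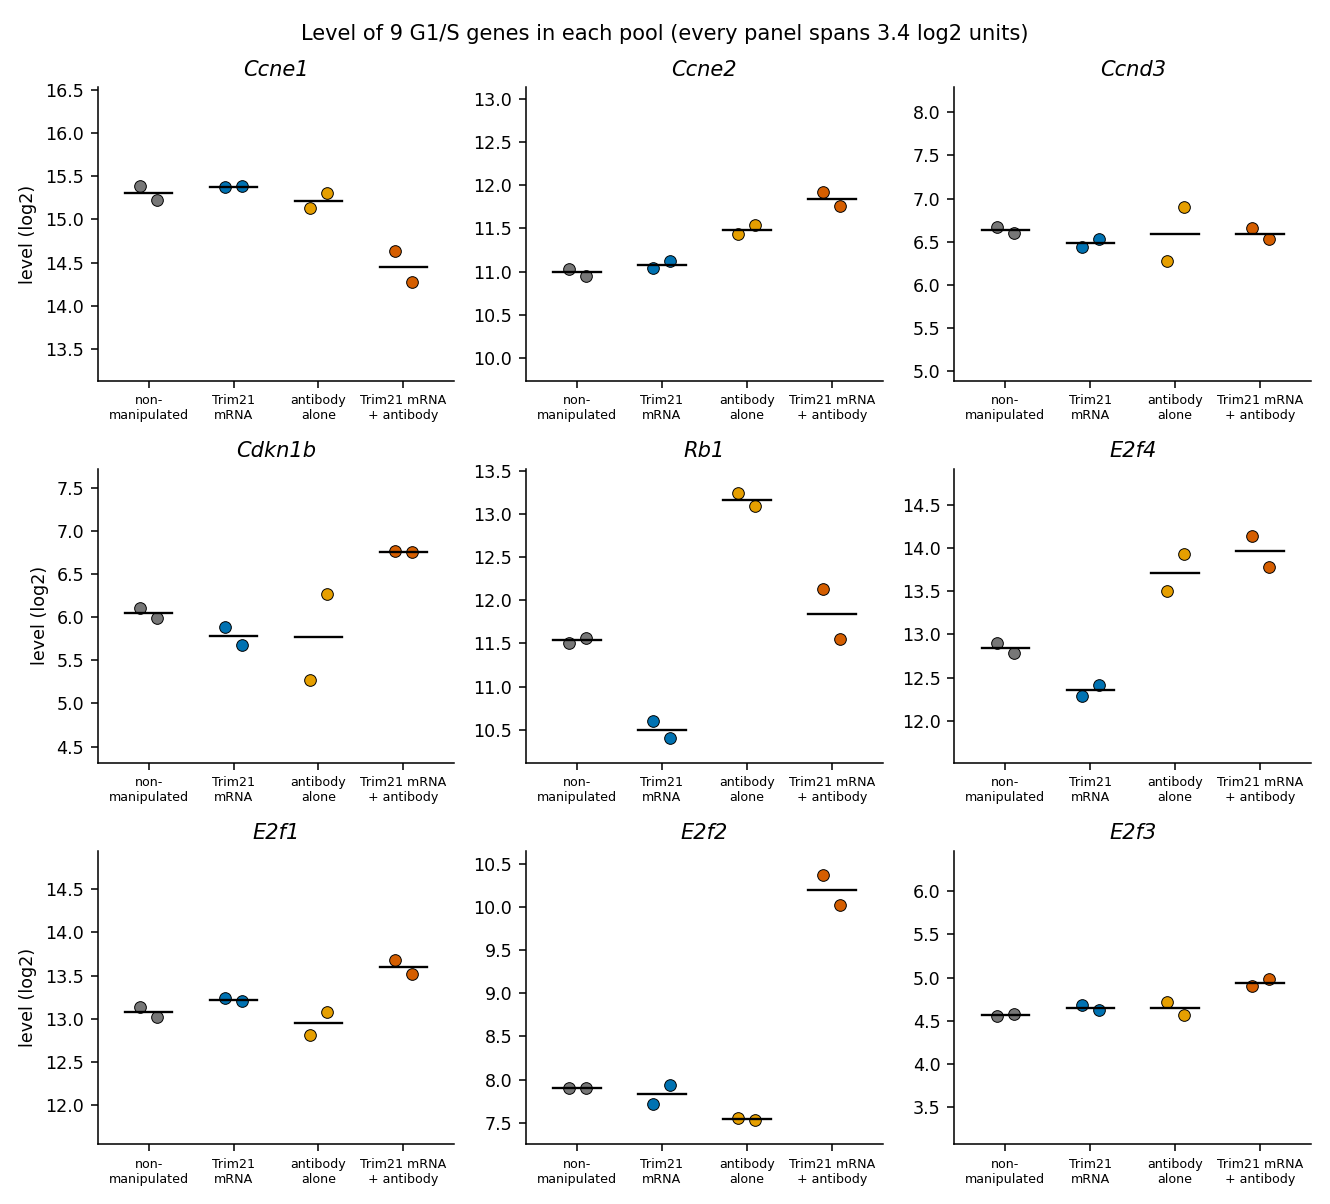
Log2 level of 9 G1/S genes in each pool, by group (points: pools, lines: group means of 2 pools). Every panel spans the same number of log2 units, and the full-treatment pools of E2f2 (10.02 and 10.37) stand apart from the other 6 pools (7.53 to 7.94), while those of Ccne1 (14.27 and 14.63) are the lowest of its 8.

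Cyclin E1, the activating partner of CDK2 at S-phase entry, has its transcript Ccne1 (TC0700002876.mm.1) at 15.39 and 15.22 in non-manipulated pools, 15.37 and 15.39 with Trim21 mRNA, 15.13 and 15.30 with antibody alone, and 14.63 and 14.27 in the full treatment. The full-treatment pools were the lowest, and the other 3 groups lay between 15.13 and 15.39, non-manipulated pools overlapping both. The level fell by 0.93 ± 0.179 against Trim21 mRNA (limma, adjusted p = 0.0106). The direction did not hold under every scaling: the difference was 0.09 after quantile normalization (adjusted p = 0.736) and −0.37 after cyclic loess (adjusted p = 0.0978), against −1.26 after median centring, with adjusted p from 0.00396 to 0.736 over 16 alternatives. The call was also lost without replicate 1 or 2 of Trim21 mRNA (adjusted p = 0.0791 and 0.0816) and without replicate 2 of the full treatment (adjusted p = 0.0517). Ccne1 has a mean level of 15.09, above 99.1% of genes, and is thus among the genes of the highest level, whose median fell by 1.34. No array's ceiling of tied highest values was reached by any of the 9 genes. Such ties held 169 and 151 clusters in the full-treatment arrays and 136 in replicate 1 of antibody alone, against 1 in each other array. The arrays with ties also had the narrowest spread of levels (SD of 2.38, 2.27 and 2.45, against 2.60 to 2.71). What this did to the level of Ccne1 was not tested.

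Its partner gene Ccne2 (TC0400000085.mm.1), for cyclin E2, moved the other way. Its level was 11.03 and 10.95 in non-manipulated pools, 11.04 and 11.12 with Trim21 mRNA, 11.43 and 11.54 with antibody alone, and 11.92 and 11.76 in the full treatment. The groups came in that order with no overlap between the first pair, the antibody group and the full treatment, while non-manipulated and Trim21 mRNA pools all lay between 10.95 and 11.12. The level rose by 0.76 ± 0.148 against Trim21 mRNA (limma, adjusted p = 0.0113). The call was lost after median centring (0.42, adjusted p = 0.223) and without replicate 1 or 2 of Trim21 mRNA (adjusted p = 0.106 and 0.0762), with adjusted p from 0.000353 to 0.223 over 16 alternatives.

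Because a shift shared by all genes of an array cancels within it, the log2 level of Ccne1 minus Ccne2 was set against its mean in non-manipulated pools. The change was 0.01 and −0.04 with Trim21 mRNA, −0.61 and −0.56 with antibody alone, and −1.61 and −1.81 in the full treatment. The 2 cyclin E transcripts thus changed unequally in all 4 antibody pools, most in the full treatment, whose mean change of −1.70 was −1.67 after quantile normalization and −1.87 after cyclic loess. Which of the pair changed in absolute amount is not given by such a difference. A shift that goes with level does not cancel in it either. Against non-manipulated embryos the full treatment had a median difference of −1.34 for genes at 14 and above, where Ccne1 lay. It was −0.875 for genes from 10 to 12, where Ccne2 lay, so part of the unequal change is shared with other genes at these levels.

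Cyclin D3, which pairs with CDK4 and CDK6 upstream of RB1, gave no call in any comparison. Ccnd3 (TC1700000917.mm.1) stood at 6.67 and 6.60 in non-manipulated pools, 6.44 and 6.53 with Trim21 mRNA, 6.28 and 6.90 with antibody alone, and 6.66 and 6.53 in the full treatment. The antibody-alone pools enclosed all others, and no order of the groups went beyond that spread. The difference between the full treatment and Trim21 mRNA was 0.11 ± 0.22, with a 95% interval from −0.41 to 0.63 (limma, adjusted p = 0.728), and it turned to −0.22 after median centring.

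Cdkn1b (TC0600001595.mm.1), for p27, had its highest pools in the full treatment, at 6.76 and 6.75. The other levels were 6.10 and 5.99 in non-manipulated pools, 5.88 and 5.68 with Trim21 mRNA, and 5.27 and 6.27 with antibody alone. The last group's pools lay far apart and enclosed both groups without antibody. The difference from Trim21 mRNA was 0.98 ± 0.309 and missed the threshold (limma, adjusted p = 0.0633), with a 95% interval from 0.24 to 1.71. The adjusted p was 0.045 with the low-level filter and 0.0058 with only the groups compared, and it ran up to 0.366 over 16 alternatives. Leaving out either antibody-alone pool, which raised calls over all genes, also brought a call. The within-array change of Ccnd3 minus Cdkn1b from non-manipulated pools was −0.69 and −0.81 in the full treatment, −0.03 and 0.26 with Trim21 mRNA, and 0.42 and 0.04 with antibody alone.

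Rb1 (TC1400002383.mm.1), for the pocket protein that holds E2F factors inactive, was the gene with the widest spread of group means, 2.67. Its level was 11.51 and 11.56 in non-manipulated pools, 10.60 and 10.40 with Trim21 mRNA, 13.24 and 13.09 with antibody alone, and 12.13 and 11.55 in the full treatment. Trim21 mRNA pools were the lowest and antibody-alone pools the highest, while full-treatment and non-manipulated pools overlapped. Against Trim21 mRNA the full treatment was higher by 1.34 ± 0.218 (limma, adjusted p = 0.00519). The call was lost with the mean of the 3 Rb1 clusters (0.43, adjusted p = 0.236) and without replicate 2 of Trim21 mRNA (adjusted p = 0.0522), in a range of 0.000409 to 0.236 over 16 alternatives. Against non-manipulated embryos the full treatment differed by 0.30 and was not called (adjusted p = 0.295).

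E2f4 (TC0800001212.mm.1), for the E2F member that mainly represses, stood at 12.90 and 12.78 in non-manipulated pools, 12.29 and 12.41 with Trim21 mRNA, 13.50 and 13.93 with antibody alone, and 14.14 and 13.78 in the full treatment. Both antibody groups lay above both groups without it and overlapped each other. The difference between the full treatment and Trim21 mRNA was 1.61 ± 0.208 (limma, adjusted p = 0.0019), and it stayed called under all 16 alternatives, between 1.27 and 2.50. Genes of a like mean level, from 12 to 14, had a median difference of −1.05.

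The activating E2F genes differed among themselves. E2f1 (TC0200004942.mm.1) had levels of 13.13 and 13.02 in non-manipulated pools, 13.24 and 13.20 with Trim21 mRNA, 12.81 and 13.08 with antibody alone, and 13.68 and 13.52 in the full treatment. The full-treatment pools were the highest, and antibody-alone and non-manipulated pools overlapped. The difference from Trim21 mRNA was 0.38 ± 0.163, with a 95% interval from −0.01 to 0.77, and was not called (limma, adjusted p = 0.136). It was called after quantile normalization (1.30) and cyclic loess (1.05) and was 0.04 after median centring, with adjusted p from 0.000902 to 0.932 over 16 alternatives. A call also came with either antibody-alone pool left out, in fits that called more of all genes. Within arrays, E2f1 minus E2f4 changed from non-manipulated pools by 0.71 and 0.56 with Trim21 mRNA, by −0.92 and −1.08 with antibody alone, and by −0.70 and −0.50 in the full treatment, so that the repressor's transcript gained on the activator's in all 4 antibody pools.

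E2f2 (TC0400001678.mm.1) stood at 7.90 and 7.90 in non-manipulated pools, 7.72 and 7.94 with Trim21 mRNA, 7.56 and 7.53 with antibody alone, and 10.37 and 10.02 in the full treatment. The full-treatment pools were over 2 log2 units above every other pool, antibody-alone pools were the lowest, and Trim21 mRNA and non-manipulated pools overlapped. The difference from Trim21 mRNA was 2.37 ± 0.176 (limma, adjusted p = 0.000184), higher than that of 99.6% of genes, and it stayed called under all 16 alternatives, between 2.03 and 2.94. E2f3 (TC1300001729.mm.1) was low throughout, at 4.56 and 4.58 in non-manipulated pools, 4.68 and 4.62 with Trim21 mRNA, 4.72 and 4.57 with antibody alone, and 4.90 and 4.98 in the full treatment. Its full-treatment pools were the highest and the other 3 groups lay between 4.56 and 4.72. E2f3 was the member below the filter on low levels (a mean of at least 6), which 8 of the 9 passed. Its difference from Trim21 mRNA was 0.29 ± 0.144 (limma, adjusted p = 0.182) and turned to −0.04, −0.07 and −0.07 after median centring, quantile normalization and cyclic loess.

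Promoter sequence was at hand for 6 of the 10 genes, in RefSeq windows of 250 bases before the transcript start (GRCm38.p6). Windows are printed for E2f2, which had the largest rise, for Ccne1, the gene that was lower, and for E2f3, the member whose window held an E2F motif, all 5′ to 3′ on the gene's strand. The 6 genes had 9 windows, 2 each for E2f2, E2f3 and Ccnd3, and of E2f2 and E2f3 the other window is not printed. Sequences are in lower case, with the motif in capitals. The words searched on both strands were TTTCCCGC, TTTCGCGC, TTTGCCGC and TTTGGCGC, which do not overlap in the windows shown. E2f2 is at chr4:136172024-136172273 on the plus strand, Ccne1 at chr7:38107491-38107740 on the minus strand, and E2f3 at chr13:29986064-29986313 on the minus strand.
E2f2: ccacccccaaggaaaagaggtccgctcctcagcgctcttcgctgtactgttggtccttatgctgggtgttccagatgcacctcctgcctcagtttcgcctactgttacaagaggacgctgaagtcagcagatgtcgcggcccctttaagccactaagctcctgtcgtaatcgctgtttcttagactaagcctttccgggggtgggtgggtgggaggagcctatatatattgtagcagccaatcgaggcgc
Ccne1: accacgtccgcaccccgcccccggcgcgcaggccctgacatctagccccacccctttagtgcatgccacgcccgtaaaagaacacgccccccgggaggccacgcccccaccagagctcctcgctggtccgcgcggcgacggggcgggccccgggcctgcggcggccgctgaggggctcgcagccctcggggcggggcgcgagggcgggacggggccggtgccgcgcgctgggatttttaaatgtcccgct
E2f3: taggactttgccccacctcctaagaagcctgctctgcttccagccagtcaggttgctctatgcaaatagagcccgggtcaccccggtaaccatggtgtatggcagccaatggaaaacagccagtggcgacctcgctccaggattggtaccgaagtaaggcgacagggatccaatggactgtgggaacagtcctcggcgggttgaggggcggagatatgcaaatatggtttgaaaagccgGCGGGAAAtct
The match in E2f3, GCGGGAAA, is TTTCCCGC read on the other strand and lies 11 to 4 bases before the start. E2f3 was 1 of the 6 genes with a window, and 2.16% of 27025 genes with one held such a word (1.86% of 32851 windows). These letters were not in the other E2f3 window, nor in the windows of the other 5 genes, E2f2 and Ccne1 included. A listed start can lie inside a gene, and other starts were not searched. A window without the letters, that of E2f1 included, thus does not show that the gene's promoter lacks them.

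Set against non-manipulated embryos, antibody alone asks what the antibody went with where no Trim21 mRNA was injected. Rb1 and E2f4 were higher and no member was lower, where 2.75% of all genes were called higher and 7.28% lower. These calls rest on a spread shared with the other groups. With only these 2 groups in the fit neither gene was called, and neither was any other of the 30709 genes. The difference in Rb1 was 1.63 ± 0.218 (limma, adjusted p = 0.00804), and that in E2f4 was 0.88 ± 0.208 (adjusted p = 0.0451). The other 7 ran from −0.36 for E2f2 to 0.49 for Ccne2 (adjusted p = 0.0864), which was called after quantile normalization (0.75) and cyclic loess (0.73). Without replicate 1 of the antibody-alone group the difference was 1.55 for Rb1 and 1.09 for E2f4, and without replicate 2 it was 1.71 and 0.66. Without replicate 1 or 2 of the non-manipulated group Rb1 was no longer called (adjusted p = 0.0959 and 0.0822, in a range of 0.00318 to 0.112 over 16 alternatives), nor with the mean of its clusters (0.74). The E2f4 call was lost under 10 of 16 alternatives, median centring and leaving out any array of the groups other than antibody alone among them, with adjusted p from 0.0124 to 0.294.

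Cdkn1b shows how far the antibody-alone pools stood apart. Its difference from non-manipulated embryos was −0.28, not called (adjusted p = 0.549), 0.22 without replicate 1 and −0.78 without replicate 2. The last of these was called, in a fit that called more of all genes. Ccne2 was at 0.55 without replicate 1 and at 0.44 without replicate 2, and was called in both fits, which called more of all genes. Over all alternatives its adjusted p ran from 0.0192 to 0.61.

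Trim21 mRNA against non-manipulated embryos gave no call among the 9 genes by limma, and 1 of them, Rb1, had an unadjusted p under 0.05. Over all genes 0.00326% were called higher and 0% lower, while 6.28% had an unadjusted p under 0.05. The difference in Rb1 was −1.03 ± 0.218 (adjusted p = 0.487, 95% interval from −1.55 to −0.52), and both Trim21 mRNA pools lay below both non-manipulated ones. E2f4 differed by −0.49 (adjusted p = 0.806), again with pools that did not overlap, and the other 7 ran from −0.27 for Cdkn1b to 0.14 for E2f1. With only these 2 groups in the fit both were called lower, Rb1 at an adjusted p of 0.0226 and E2f4 at 0.0466, against adjusted p up to 1 over 16 alternatives. That fit called 880 of all 30709 genes higher and 1641 lower. Both genes were called higher in the full treatment against the Trim21 mRNA group, so their low levels in that group are part of that difference.

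**Figure D2:**
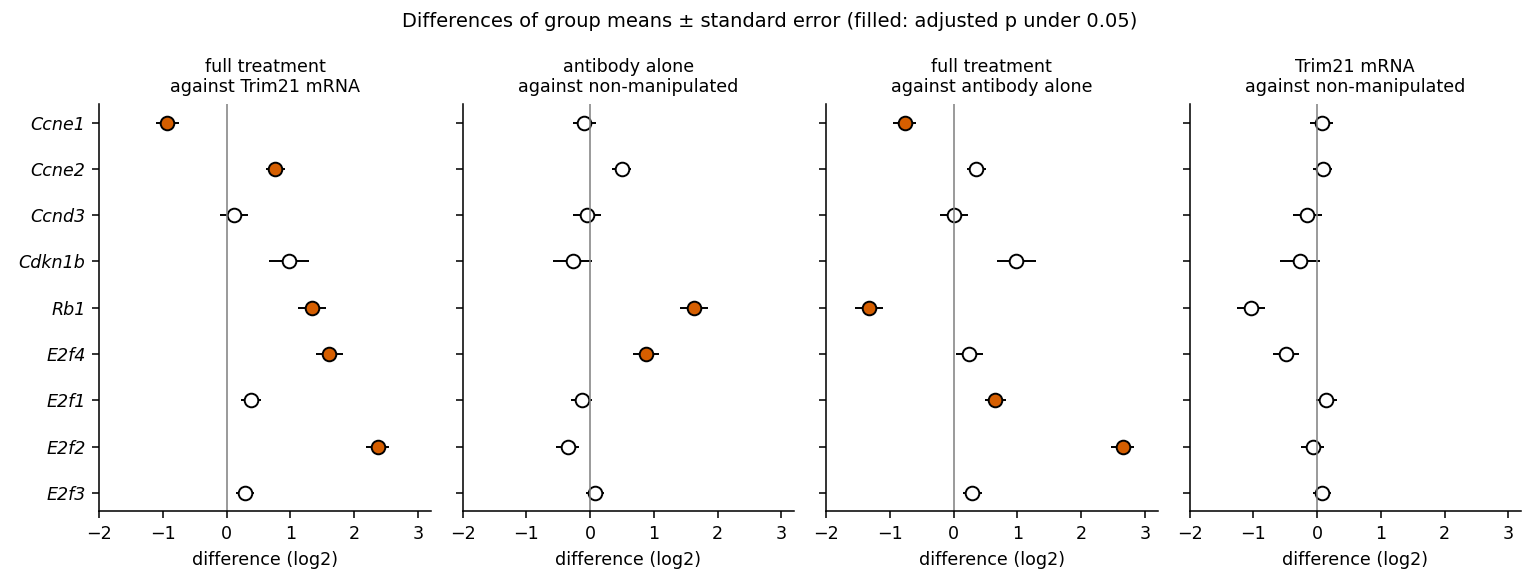
Differences of mean log2 level between groups for 9 genes, ± standard error of limma's fit, in 4 comparisons (filled points: adjusted p under 0.05). E2f2 differs by 2.37 and 2.65 in both comparisons of the full treatment shown and is not called in the other 2, while Rb1 takes values on both sides of 0, from −1.33 to 1.63.

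What Trim21 mRNA added to the antibody was read from the full treatment against antibody alone, which shares its full-treatment pools with the first comparison. E2f2 and E2f1 were higher and Rb1 and Ccne1 lower, where 4.37% of all genes were called higher and 10.5% lower. The difference was 2.65 ± 0.176 for E2f2 (limma, adjusted p = 0.000369) and 0.66 ± 0.163 for E2f1 (adjusted p = 0.0394). It was −1.33 ± 0.218 for Rb1 (adjusted p = 0.00827) and −0.77 ± 0.179 for Ccne1 (adjusted p = 0.0318). Without replicate 1 of antibody alone these 4 were 2.67, 0.52, −1.25 and −0.85, and without replicate 2 they were 2.63, 0.79, −1.40 and −0.68, each in the same direction. E2f2 stayed called under 16 of 16 alternatives. E2f1 lost its call under 10 (adjusted p from 0.00153 to 0.293) and Ccne1 under 10 (0.0166 to 0.61), among them leaving out any array of the groups not compared, either pool of the full treatment for E2f1, and its replicate 2 for Ccne1. Rb1 lost its call after quantile normalization (−0.65), with the mean of its clusters (−0.60) and with only the groups compared (adjusted p = 0.0832, in a range of 0.00603 to 0.173). E2f4 differed by 0.24 and Ccne2 by 0.35, both uncalled, and both were called after quantile normalization (0.89 and 0.96) and cyclic loess (0.73 and 0.83). Cdkn1b differed by 0.98 (adjusted p = 0.0845), by 0.48 without replicate 1 of antibody alone and by 1.48 without its replicate 2. It was called in both of these fits, which called more of all genes, and its adjusted p ran up to 0.285 over all alternatives.

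In the full treatment against non-manipulated embryos, E2f2, E2f4, Ccne2 and E2f1 were higher and Ccne1 was lower, where 15.1% of all genes were called higher and 16.6% lower. The differences were 2.29 for E2f2 (limma, adjusted p = 0.000193), 1.12 for E2f4 (adjusted p = 0.00811), 0.85 for Ccne2 (adjusted p = 0.00628), 0.53 for E2f1 (adjusted p = 0.0483) and −0.86 for Ccne1 (adjusted p = 0.013). E2f2 was again called under all 16 alternatives. E2f4 and Ccne2 lost their calls after median centring (0.66 and 0.39) and without replicate 1 or 2 of the non-manipulated group, with adjusted p of 0.0525 and 0.07 for E2f4 and 0.0526 and 0.0677 for Ccne2, and up to 0.158 and 0.218 over all alternatives. Ccne1 was at 0.04 after quantile normalization and lost its call without replicate 1 or 2 of the non-manipulated group (adjusted p = 0.109 and 0.0652) and without replicate 2 of the full treatment (adjusted p = 0.0624), in a range of 0.00472 to 0.864. E2f1 lost its call under 10 of 16 alternatives, every removal of an array from the groups compared or from Trim21 mRNA among them (0.000555 to 0.873). The uncalled difference of 0.30 in Rb1 ran from −0.16 after median centring to 1.21 after quantile normalization and 1.03 after cyclic loess, the last 2 of which were called. That of 0.37 in E2f3 (adjusted p = 0.088, in a range up to 0.689) turned to −0.12, −0.09 and −0.12 after quantile normalization, median centring and cyclic loess. Cdkn1b differed by 0.71 and was not called (adjusted p = 0.114, in a range up to 0.703). Both genes were called with either antibody-alone pool left out, in fits that called more of all genes.

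Whether the antibody difference differed with and without Trim21 mRNA was tested as an interaction, the full treatment minus Trim21 mRNA less antibody alone minus non-manipulated. It was called for E2f2, at 2.72 ± 0.248 (limma, adjusted p = 0.00462), and for no other member, where 0.625% of all genes were called higher and 3.46% lower. The E2f2 difference was 2.37 with Trim21 mRNA and −0.36 without, and the interaction was 2.73 and 2.71 without replicate 1 or 2 of antibody alone. Its call was lost without replicate 2 of the non-manipulated group (adjusted p = 0.0532, the highest of 15 alternatives, against 0.00166 as the lowest). At an unadjusted p under 0.05 were also Ccne1 (−0.84, adjusted p = 0.154), E2f4 (0.73, adjusted p = 0.311) and Cdkn1b (1.25, adjusted p = 0.226). Of these, E2f4 was called after quantile normalization (1.31) and cyclic loess (1.23). Without replicate 2 of antibody alone E2f4 (0.95) and Cdkn1b (1.75) were called too, in a fit that called more of all genes. E2f1 (1.17) and Ccne2 (0.90) were called after quantile normalization alone. Rb1, higher with the antibody in both settings, had an interaction of −0.29 with a 95% interval from −1.02 to 0.44, which does not show that its differences were alike.

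**Figure D3:**
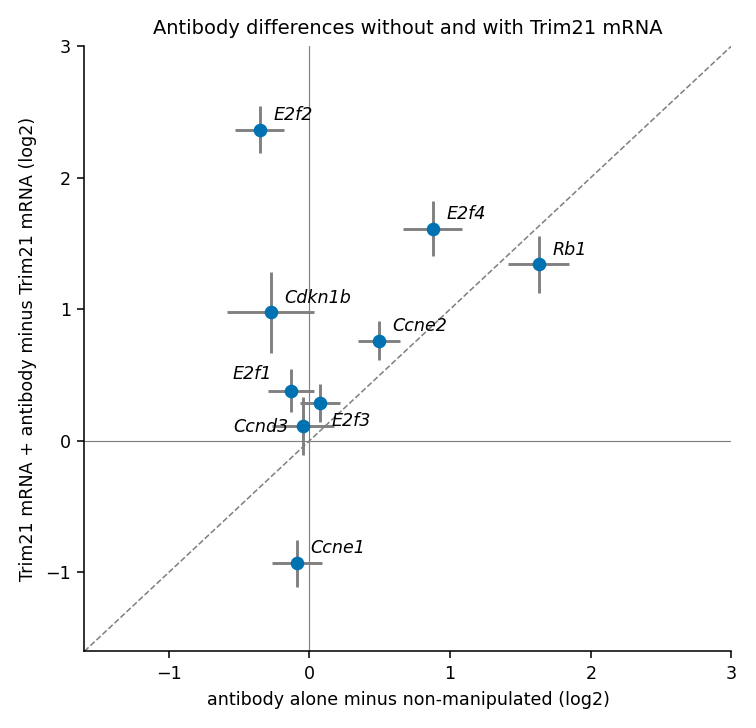
Antibody difference with Trim21 mRNA (vertical axis) against that without it (horizontal axis), in log2 units, ± standard error of limma's fit; the dashed line marks equal differences. E2f2 lies farthest from the line, at −0.36 and 2.37, Rb1 lies near it, at 1.63 and 1.34, and Ccne1 is the gene well below 0 on the vertical axis, at −0.93.

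Across all 4 groups, limma's F test called 5 of the 9 genes against 26.4% of all genes: E2f2 (adjusted p = 0.000308), Rb1 (0.00107), E2f4 (0.0042), Ccne2 (0.016) and Ccne1 (0.0236). In a fit of the 12727 genes with a mean level of at least 6, the F test called 6969 of them. It called 5 of the 8 members in that fit, so the F test does not set the members apart from genes at such levels. E2f1 (0.0764), Cdkn1b (0.119), E2f3 (0.234) and Ccnd3 (0.926) were not called. The group means of Rb1 spanned 2.67 and those of E2f2 2.65, against 0.15 for those of Ccnd3.

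**Figure D4:**
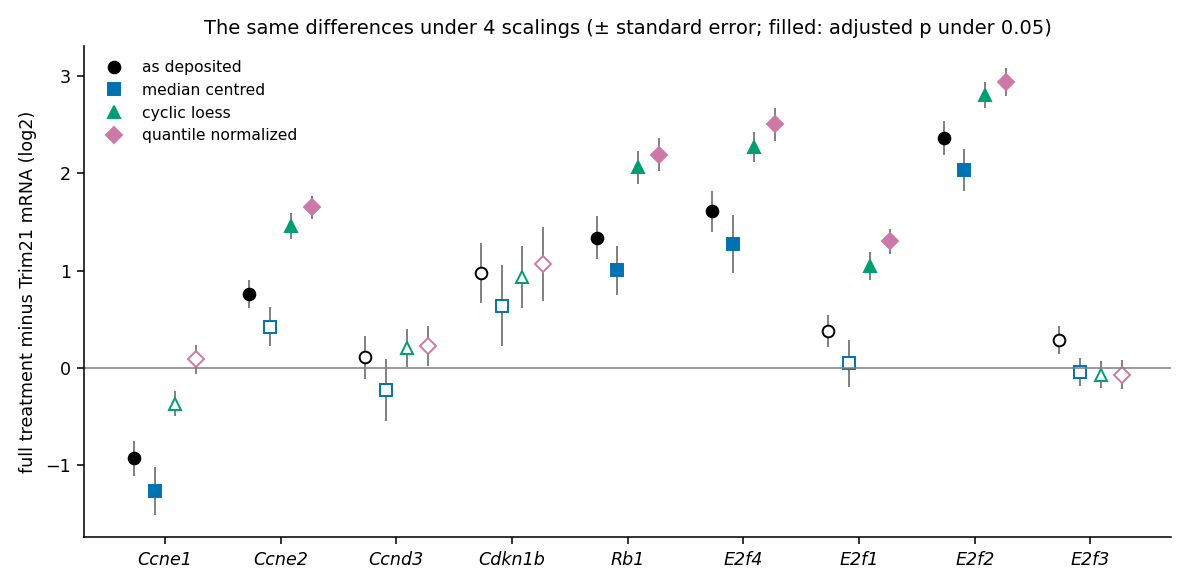
Difference between the full treatment and Trim21 mRNA for 9 genes under 4 scalings, in log2 units ± standard error (filled: adjusted p under 0.05). E2f2, E2f4 and Rb1 stay above 0 and called under all 4, while Ccne1 runs from −1.26 after median centring to 0.09 after quantile normalization.

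The profiles most alike to the 3 genes whose group means spanned at least 1 log2 unit were found among 18547 genes with a current symbol of a characterised gene, as the root mean square difference of log2 levels over 8 arrays after centring each gene. For E2f2 they were H2ac1 (0.21) and Pak4 (0.25), for E2f4 Sorbs2 (0.10) and Arid5b (0.11), and for Rb1 Septin11 (0.09) and Smim11 (0.13).

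Around these genes, most listed E2F target genes of S phase were lower in the full treatment than with Trim21 mRNA, and other lists of the G1/S machinery had calls in both directions, beside the 8.72% of all genes called higher and 14.5% called lower in that comparison. Of 24 other core genes (cyclins, kinases, inhibitors, pocket proteins, E2F and DP factors) 2 were called higher and 3 lower, near those shares, with a median difference of −0.14. Cdk4, the kinase partner of D-type cyclins, fell by 3.07 ± 0.139 (limma, adjusted p = 6.5e-05). Ccnh and Mnat1, the partners of CDK7 in the kinase that activates other cyclin-dependent kinases, fell by 2.11 ± 0.157 (adjusted p = 0.000186) and 1.08 (adjusted p = 0.0254). E2f5, a repressor like E2f4, rose by 0.94 ± 0.229 (adjusted p = 0.0269). The other called gene was Tfdp1, for the DP partner of E2F factors, which rose by 0.65 (adjusted p = 0.0386). Cdk2, the partner of cyclin E, differed by −1.71 without a call (adjusted p = 0.0731).

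Among 15 of 16 measured ubiquitin ligase genes and helpers of G1/S protein turnover, 1 was called higher and 3 lower, with a median of 0.04 (0.69 after quantile normalization and −0.30 after median centring). Cul3, the scaffold of a ligase of cyclin E, fell by 1.88 ± 0.181 (limma, adjusted p = 0.000515) and Skp2, whose product marks p27 for removal, by 1.34 ± 0.19 (adjusted p = 0.00282). Fbxo31, for an F-box protein of cyclin D1, fell by 2.54 ± 0.366 (adjusted p = 0.00306). Rnf123, part of a ligase of p27 in G1, rose by 0.63 ± 0.153 (adjusted p = 0.0266). Protein amounts were not measured on these arrays.

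Of 24 of 26 measured E2F target genes, 17 were called lower and 1 higher, with a median difference of −1.64 (−1.18 after quantile normalization, −1.98 after median centring). The median over all genes was 0.21, but 20 of the 24 targets had mean levels from 8 to 14, where it was −0.60, −0.75 and −1.05 in steps of 2 log2 units. The replication factor genes Cdc45 (−2.73 ± 0.208, limma, adjusted p = 0.000202), Rfc4 (−1.83 ± 0.161, adjusted p = 0.000348) and Mcm6 (−2.83 ± 0.255, adjusted p = 4e-04) fell, as did Rrm2, for a subunit of ribonucleotide reductase (−2.03 ± 0.179, adjusted p = 0.000362). Uhrf1, which recruits DNA methylation to replicated DNA, was the target that rose, by 1.98 ± 0.327 (adjusted p = 0.00547). In antibody alone against non-manipulated embryos 11 targets were called lower and 0 higher (7.28% and 2.75% of all genes), with a median of −0.80. The medians of all genes in the same steps of level were −0.325, −0.378 and −0.39. In the full treatment against antibody alone 10 were lower and 1 higher (10.5% and 4.37% of all genes), with a median of −0.64, against −0.425, −0.568 and −0.88 in those steps. With the low-level filter 2574 of 12727 genes were called lower in the former comparison and 3398 in the latter, larger shares than over all genes. With Trim21 mRNA against non-manipulated embryos 0 were called and the median was −0.18. Against Trim21 mRNA the full treatment thus had higher transcripts of an activator, E2f2, of the repressors E2f4 and E2f5 and of Tfdp1, while most listed targets were lower. With antibody alone against non-manipulated embryos, where 11 targets were lower, E2f2 was at −0.36 and not called. There E2f4 (0.88, limma, adjusted p = 0.0451) and E2f5 (0.96, adjusted p = 0.0454) were called higher, close to the threshold. Tfdp1 was at −0.145 and not called. Whether any of these transcripts had a part in the levels of the targets was not tested.

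**Figure D5:**
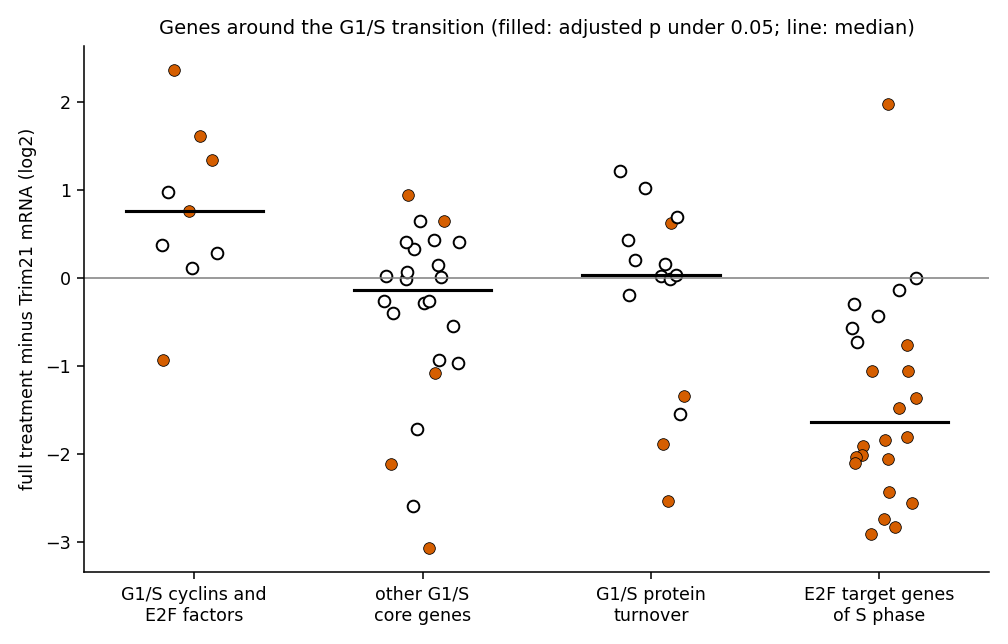
Difference between the full treatment and Trim21 mRNA, in log2 units, for each measured gene of 4 lists (points: genes, filled at an adjusted p under 0.05, lines: list medians). The medians are 0.76 for the 9 G1/S cyclin and E2F genes, −0.14 for 24 other core genes, 0.04 for 15 turnover genes and −1.64 for 24 E2F targets.

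Calls in the marker lists are given beside the shares over all genes. In the full treatment against Trim21 mRNA (8.72% of all genes higher and 14.5% lower), early embryo and oocyte markers had 7 of 12 called higher and 1 lower, cumulus and granulosa markers 1 of 11 each way (Has2 at 0.56 and Amhr2 at −3.33), sperm markers 1 of 8 higher, and oviduct and blood markers none of 5 each. In antibody alone against non-manipulated embryos (2.75% of all genes higher and 7.28% lower), 6 of 12 early embryo and oocyte markers were called higher and 0 lower, with Bmp15 at 1.53. Of cumulus and granulosa markers there, Cyp11a1 (3.14) and Star (0.66) were called higher and Amhr2 (−2.06) lower, and 0 of the sperm, oviduct and blood markers were called. In the full treatment against antibody alone (4.37% of all genes higher and 10.5% lower), 4 early embryo and oocyte markers were higher and 3 lower, and 3 cumulus and granulosa markers were lower. Against non-manipulated embryos (15.1% of all genes higher and 16.6% lower) the full treatment had 5 higher and 1 lower of the former and 1 each way of the latter, with 2 sperm markers higher and 2 oviduct markers higher and 1 lower. The summed level of cumulus and granulosa markers was 9.22 and 9.72 on the log2 scale in the full treatment, 11.79 and 11.72 with Trim21 mRNA, 12.15 and 12.48 in non-manipulated pools, and 11.32 and 10.86 with antibody alone. Amhr2 was the highest of these markers and made up most of the sum with Trim21 mRNA. Its mean level was 11.575 there and 8.245 in the full treatment, so the lower sum mainly follows this gene. The median difference of the 11 markers in that comparison was 0.21, the same as over all genes. The sum thus does not show a fall of these markers as a class. The lowest cumulus or granulosa marker was at 3.37 on the log2 scale, which has no value for absence. The part of these markers in the differences above was not tested, nor was that of undivided zygotes, whose number per pool the labels do not give.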

How the data were processed

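RNA of 8 pools of 100 embryos was measured on arrays. Per the labels' protocols, biotinylated cDNA was made with a GeneChip WT Pico kit, and per the submitters' processing notes the software was Affymetrix Expression Console. Not given in the sources used here are its version, the summarisation method and the genome build. The deposited values are log2 levels per transcript cluster. The authors' first column also holds 1 cell that is no log2 value, and its cluster was dropped, leaving 65955 of 65956 clusters. Of these, 31265 named 1 gene, 1484 several and 33206 none in the array's annotation (1797 symbols updated). With 1 cluster kept for each of 441 genes on several, 30709 genes remained. No filter or further normalization was applied to the values reported.

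limma 3.58.1 (R 4.3.3; lmFit, then eBayes, two-sided) gave the tests, with 4 residual degrees of freedom per gene (6.83 in total) and standard errors with a median of 0.219 (interaction: 0.31), and was checked on simulated data. P was adjusted by Benjamini-Hochberg over all genes within each of 6 comparisons and the F test. The number of arrays limits the precision, and no exact test of 2 pools against 2 can reach the threshold. The members, the gene and marker lists and the tests were chosen with earlier results of these data known, so no count of them is independent evidence. All members were named with every value, and of each other list up to 4 called genes with the smallest p in the first comparison. Tfdp1, Cdk2, Uhrf1, Has2, Amhr2, Bmp15, Cyp11a1 and Star were named after their values had been seen. The alternatives tried were 3 scalings (quantile, median centring, cyclic loess), a filter on low level, averaging the clusters of a gene, a robust prior with trend, the replicate number as a block, only the groups compared, an added 2-fold threshold, and each array left out in turn. A planned within-array difference of Ccnd1 and Ccnd3 was not run, since Ccnd1 has no cluster of its own. Promoter windows came from RefSeq (GRCm38.p6).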

Additional observations from a re-analysis of the deposited data

Results flagged for a closer look

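The antibody difference of E2f2 differed between embryos with and without injected Trim21 mRNA: the interaction was 2.72 ± 0.248 on the log2 scale (limma, adjusted p = 0.00462), from a difference of 2.37 with the mRNA and −0.36 without it, and both full-treatment pools lay above all 6 others. Over 15 alternatives the adjusted p ran from 0.00166 to 0.0532, the highest without replicate 2 of the non-manipulated group. Groups of 2 pools allowed no test for outlying pools.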

How the results depend on the processing

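In counts of members called, the full treatment against Trim21 mRNA (5) gave 3 with the 2-fold threshold. It gave fewer without either pool of Trim21 mRNA or replicate 2 of the full treatment, and more without either pool of antibody alone. Calls over all genes moved as well with an array left out. They rose without either pool of antibody alone, but for Trim21 mRNA against non-manipulated embryos, and fell without any other array. Antibody alone against non-manipulated embryos (2) gave 1 after median centring, with the mean of clusters, with the robust prior, with the replicate block and with the 2-fold threshold, 0 with only the groups compared, and 0 (without replicate 1 or 2 of the non-manipulated group) to 4 (without replicate 2 of antibody alone) with an array left out. Trim21 mRNA against non-manipulated embryos (0) gave 2 with only the groups compared. The full treatment against antibody alone (4) gave 2 after median centring, with the replicate block and with the 2-fold threshold, 1 with only the groups compared, and 2 to 5 with an array left out. The full treatment against non-manipulated embryos (5) gave 2 after median centring and with the 2-fold threshold, and 1 to 7 with an array left out. The interaction (1) gave 4 after quantile normalization, 2 after cyclic loess, and 0 (without replicate 2 of the non-manipulated group) to 3 (without replicate 2 of antibody alone) with an array left out. The F test (5) gave 3 after median centring and 3 to 7 with an array left out. Among the values with alternatives set out in full, directions turned for E2f3 in the full treatment against Trim21 mRNA after quantile normalization (−0.0694), median centring (−0.045) and cyclic loess (−0.0703), for Ccne1 there (0.0884) and against non-manipulated embryos (0.0431) after quantile normalization, for Ccnd3 after median centring (−0.22), and for the within-array change of E2f1 minus E2f3 with antibody alone after quantile normalization (0.39) and cyclic loess (0.29), from −0.20 as deposited. The cause was not tested. Over all 849 member differences under alternatives 41 turned sign, 32 of them under a scaling and 9 with an array left out. Of the 41, 2 were called as deposited, both in Ccne1 after quantile normalization. Of 355 values of single members under alternatives, 266 kept direction and side of the threshold, 75 lost and 8 gained a call, and 6 turned; of 24 within-array values 14 kept within the spread of pools, 8 moved and 2 turned. Same-numbered pools shared a number only: their deviations correlated from −0.19 to 0.14, and beyond the counts above the replicate block left 4 calls in place of 5 in the full treatment against non-manipulated embryos. Over all genes, the share of calls that were higher in the full treatment against Trim21 mRNA was 37.6% as deposited, 14% after median centring and 25.2% with the low-level filter.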
